A study of Mus musculus with 32 samples.

Results

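Endothelial cells of the median eminence (ME) were picked from a single-cell RNA-sequencing matrix of that tissue by their own transcript counts. A cell was taken when it held at least 5 unique molecular identifiers (UMIs, each standing for 1 captured transcript) of Itm2a, at least 3 UMIs of Cldn5, Flt1, Pecam1 and Ly6c1 together, and under 10 UMIs of Dcn, a gene of fibroblast-like vascular and leptomeningeal cells (VLMCs). This gave 80 of 5982 cells, or 1.34% (exact 95% Clopper-Pearson interval 1.06% to 1.66%). The members were therefore chosen by measured values, and the levels of these genes are given only to describe the selection. Among the 80 cells, 76 held more Cldn5 than Plvap and are called the Cldn5 class, and 4 held more Plvap than Cldn5 and are called the Plvap class, with at least 2 UMIs of the leading gene.

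The study compared fasted mice with mice that had eaten again. The ME was dissected from male C57B/L6 mice aged 40 to 47 days, and 5 of them had been fasted for 16 h overnight while the other 5 were given normal chow for 1 h after the same fast. Tissue was pooled within each feeding state, dissociated with papain, and sorted for DraQ5 as a nuclear dye and against DAPI as a dye of dead cells, and each pool was split over 2 droplet libraries. The 32 sample records are sequencing parts of these 4 libraries. Each barcode in the matrix ends in a number from 1 to 4, and no label ties a number to a library or a feeding state, so no cell was assigned to fasted or refed mice and all values describe both states together. The matrix was treated as 1 sample without replicates, and no test was run. Levels are given as CPM, the UMIs of a gene per 1e+06 UMIs of a group of cells, with exact Poisson 95% intervals. These intervals and those of shares cover counting error only, and UMIs from a single cell share their source.

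Capillaries of most of the brain form the blood-brain barrier. Their endothelial cells are sealed by claudin-5 and other tight junction proteins, take up few vesicles, and bring glucose, amino acids and other nutrients across through transporters. Wnt ligands from neural cells keep this state through beta-catenin and LEF/TCF factors. The ME is a circumventricular organ: the loops of its portal capillaries have fenestrae, pores that are bridged by diaphragms of plasmalemma vesicle associated protein, the product of Plvap, and VEGF from neighbouring cells is known to maintain such vessels. A dissected ME also holds barrier capillaries of its border and of the adjoining hypothalamus.

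The matrix held 29288898 UMIs over 27998 genes. Endothelial cells had 1570 to 6780 UMIs, with a median of 2323.5 against 3855.5 in the 5902 other cells. Barcode numbers 1, 2, 3 and 4 gave 21 of 1642, 31 of 1493, 18 of 1359 and 10 of 1488 cells, or 1.28%, 2.08%, 1.32% and 0.672%. Of all barcode sequences, 21 occurred under more than 1 number, and 1 endothelial cell carried such a sequence. A doublet caller run within each barcode number marked 50 cells, among them 1 cell of the Cldn5 class and 1 cell of the Plvap class, and all were kept.

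The selection had few cells at its margins. Itm2a, an integral membrane protein gene, ranged from 6 to 77 UMIs per endothelial cell with a median of 19.5, and the sum of the 4 other genes ranged from 4 to 90 with a median of 32. The lowest members held 6 UMIs of Itm2a in 2 cells and 7 in 3 cells. Just outside, 1 cell had 4, 3 cells had 3 and 1 cell had 1 UMI of Itm2a with the other criteria met, and 5 further cells had none. On the other criterion, the lowest members held sums of 4 and 5 UMIs in 1 cell each, while 1 cell with enough Itm2a held a sum of 2, and 18 such cells held a sum of 0. None of these 18 had Emcn or Rgs5, while 3 had the endothelial gene Cdh5, 6 had the pericyte gene Vtn and 9 had the neuronal gene Snap25. No cell was left out for Dcn, which reached 3 UMIs in the members.

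The label was checked against genes that the selection did not use. Tie2, the angiopoietin receptor encoded by Tek, stood at 0.378 CPM in the other cells and at 644 and 186 CPM in the Plvap and the Cldn5 class. Cdh5, the cadherin of endothelial junctions, stood at 1.41 CPM in the other cells against 552 and 259 CPM in the Plvap and the Cldn5 class. Over the 24 pan-endothelial genes that the selection did not use, every one was found in the endothelial cells and the summed level was 19710 CPM, against 471 CPM in the other cells. A grouping of all cells by Leiden clustering, made from the same counts with the genes of the selection left in, placed 77 of the 80 cells, among them all 4 of the Plvap class, in 1 cluster of 85 cells.

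Markers of most other cell types were lower in the endothelial cells than in the other cells. Microglia and macrophage markers summed to 139 CPM in the endothelial cells against 2600 CPM in the other cells, and Mrc1 was at 0. Neuron markers summed to 228 against 3154 CPM, with Syt1 and Tubb3 at 0. The oligodendrocyte markers summed to 1139 against 14280.2 CPM. VLMC markers other than Dcn summed to 651 against 880.0 CPM, with Lum at 0. Mural cell markers were higher, at 1483 against 332 CPM, with Myh11 and Des at 0. They had UMIs in 21 of the 76 cells of the Cldn5 class and in none of the Plvap class, and Rgs5 had 60 UMIs over 18 cells with at most 8 in a cell. Haemoglobin genes, at 9906 against 434 CPM, came almost wholly from 1 cell that is described further on.

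Plvap and Cldn5 were never found in the same endothelial cell. The 4 cells of the Plvap class held 11, 11, 20 and 14 UMIs of Plvap and 0 of Cldn5. They are listed in this order as cells 1 to 4, and the doublet caller had marked cell 2. The 76 cells of the Cldn5 class held 3 to 60 UMIs of Cldn5, with a median of 15, and 0 of Plvap, which allows a share of up to 3.95% of cells with a UMI. Since these genes define the classes, this split is a description. The Plvap class made up 5% of the endothelial cells (exact interval 1.38% to 12.3%). Its cells came 2 each from barcode numbers 1 and 4, and none of the 31 and 18 endothelial cells of numbers 2 and 3 was among them. Elsewhere in the matrix counts were low: Plvap had a UMI in 156 of the 5902 other cells (2.64%, at a median depth of 5985 UMIs) and in 1 of 525 microglia-rule cells (0.190%, median depth 3097 UMIs), which were selected by microglial genes, and apart from 2 cells described further on it never exceeded 3 UMIs.

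**Figure D1:**
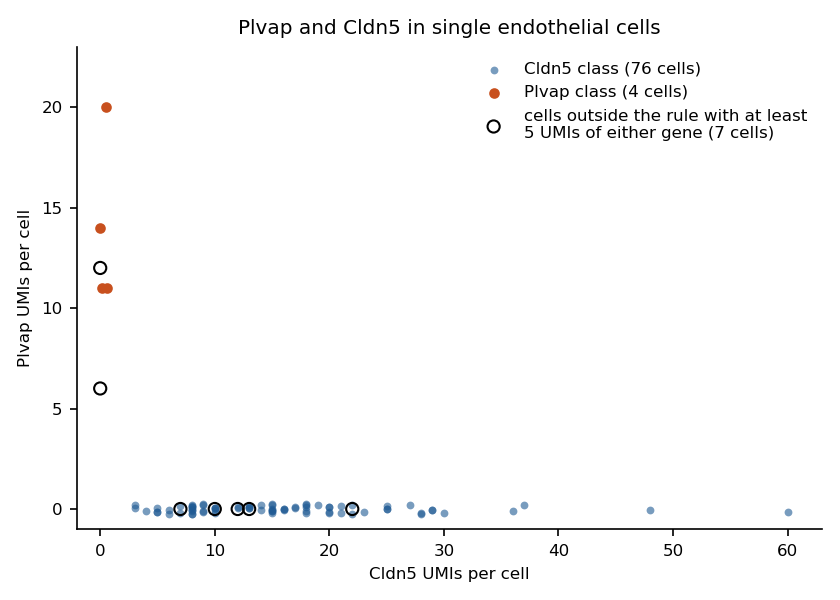
UMIs of Cldn5 (x axis) and Plvap (y axis) per cell for the 76 cells of the Cldn5 class (blue), the 4 cells of the Plvap class (orange) and 7 cells outside the selection with at least 5 UMIs of either gene (open circles). Points at 0 are spread slightly along the axis that is 0; all cells lie on one axis or the other.

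The Plvap gene lies on chromosome 8 (71497765 to 71511752, minus strand, GRCm38) and Cldn5 on chromosome 16 (18776847 to 18778262, plus strand). For the genes that separate the classes, the 250 bases before the transcript start are given below to let the sequence be read beside the levels. They show Cldn5 and the barrier genes Slco1a4 and Mfsd2a against the fenestrated vessel genes Igfbp3 and Esm1. Sequences are from RefSeq on GRCm38.p6, 5′ to 3′ on the strand of the gene, and capitals mark GGAA (the core of ETS sites), CTTTGA (a TCF/LEF site) and ACAAT (a SOX site) on either strand.
Cldn5, chr16:18776597-18776846, plus strand: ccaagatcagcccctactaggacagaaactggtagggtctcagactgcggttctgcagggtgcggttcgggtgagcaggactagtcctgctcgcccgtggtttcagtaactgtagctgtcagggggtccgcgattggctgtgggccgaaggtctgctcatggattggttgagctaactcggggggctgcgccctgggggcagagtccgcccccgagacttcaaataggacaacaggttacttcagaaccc
Slco1a4, chr6:141856221-141856470, minus strand: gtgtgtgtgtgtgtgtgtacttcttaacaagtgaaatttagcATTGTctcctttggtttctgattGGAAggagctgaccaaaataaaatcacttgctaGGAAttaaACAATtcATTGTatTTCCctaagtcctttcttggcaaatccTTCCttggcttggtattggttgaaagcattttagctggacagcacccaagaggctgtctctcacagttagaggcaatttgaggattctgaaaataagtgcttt
Mfsd2a, chr4:122961189-122961438, minus strand: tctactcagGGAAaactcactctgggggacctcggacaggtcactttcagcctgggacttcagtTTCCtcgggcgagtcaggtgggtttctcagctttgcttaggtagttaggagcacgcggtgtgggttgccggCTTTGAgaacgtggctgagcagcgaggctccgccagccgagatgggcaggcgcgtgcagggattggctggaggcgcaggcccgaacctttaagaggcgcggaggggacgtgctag
Igfbp3, chr11:7213924-7214173, minus strand: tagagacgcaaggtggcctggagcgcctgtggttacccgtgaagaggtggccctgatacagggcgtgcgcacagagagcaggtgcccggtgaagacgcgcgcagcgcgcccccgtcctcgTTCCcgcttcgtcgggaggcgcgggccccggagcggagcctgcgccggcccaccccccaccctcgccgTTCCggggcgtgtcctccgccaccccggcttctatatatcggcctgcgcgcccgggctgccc
Esm1, chr13:113209409-113209658, plus strand: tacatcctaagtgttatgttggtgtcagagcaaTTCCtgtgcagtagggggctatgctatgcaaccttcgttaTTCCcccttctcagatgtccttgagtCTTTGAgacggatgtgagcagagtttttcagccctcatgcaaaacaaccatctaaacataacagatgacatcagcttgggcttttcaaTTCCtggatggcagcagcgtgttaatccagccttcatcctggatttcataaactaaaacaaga
Slco1a4 held 4 GGAA and 3 ACAAT matches, Mfsd2a 2 GGAA and 1 CTTTGA match, Igfbp3 2 GGAA matches, and Esm1 3 GGAA and 1 CTTTGA match, and none of these letters occurred in the Cldn5 window. Over windows of 300 bases, which add the first 50 of the transcript, GGAA was present in 96.0%, CTTTGA in 16% and ACAAT in 31.0% of all 32851 promoters. CTTTGA was present in 6 of the 18 barrier transporter promoters that were matched and in 1 of the 11 promoters of fenestrated vessel genes, but in 1 of 12 among the 15 genes lowest in the Plvap class and in 2 of 13 among the 15 highest. A match is only a run of letters and is not a measured binding site.

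The 2 classes were set side by side over 1310 genes with at least 30 UMIs in both together. With a pseudocount of 50 CPM on the log2 scale, 111 genes (8.47%) were over 2-fold higher and 314 (24.0%) over 2-fold lower in the Plvap class, and the median of all 1310 was -0.12. The Plvap class held 10871 UMIs against 204245 in the Cldn5 class, so that 1 UMI was worth 92.0 CPM in the Plvap class and 4.90 CPM in the Cldn5 class. A gene at 0 in the Plvap class is read as lying under 3 UMIs, or 276 CPM. For genes at 0 in 1 class, folds set the level of the other class against this limit of 3 UMIs. They leave out the counting error of that level, and exact intervals of the ratio reach lower folds. Of the 314 lower genes, 210 were at 0 in the Plvap class, and 140 of the 314 had a level above 276 CPM in the Cldn5 class, so most of the lower count lies where 4 cells cannot tell a low level from none.

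Transporters of the barrier were lower in the Plvap class almost throughout. Summed over the list of 24 genes, the 4 cells of the Plvap class held 10, 6, 8 and 11 UMIs, while cells of the Cldn5 class held 27 to 214 with a median of 103.5. In CPM per cell the Plvap class reached 2489 to 5450 and the Cldn5 class 7266 to 66050, so that the classes did not overlap. The summed level was 3219.6 CPM against 39032 CPM, a 12.1-fold difference (interval 8.71 to 17.4). Bsg, which encodes the transporter chaperone basigin, makes up much of this sum, and without it the difference was 7.07-fold (interval 4.97 to 10.4). Of the 21 transporter genes with enough UMIs, 16 were over 2-fold lower and 0 over 2-fold higher, where 24.0% and 8.47% of all genes were, and 4 of these 16 had 0 UMIs in the Plvap class at a Cldn5 class level under 276 CPM. Without a minimum of UMIs, all 24 genes had a lower CPM in the Plvap class, as had 74.2% of the 11236 genes with a UMI in either class. In the Plvap class 16 of the 24 genes had no UMI. Of the 15 transporters above 276 CPM in the Cldn5 class, 9 were among these 16. The rest of the 16 lay under 276 CPM there, where a count of 0 cannot be told from a low level. Among the 1310 genes with at least 30 UMIs, 210 had no UMI in the Plvap class, and the matching share without a minimum was not counted.

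Slco1a4, which encodes an organic anion transporter of brain capillaries, led the list. It had 2 to 27 UMIs in each of the 76 cells of the Cldn5 class, with a median of 12, and 0 in all 4 cells of the Plvap class. Its level was 4862 CPM in the Cldn5 class, 17.6-fold above the limit of the Plvap class. The exact upper bound of the ratio of Plvap over Cldn5 class was 0.0699. Slc2a1, the glucose transporter GLUT1, had 1 to 20 UMIs in all 76 cells and 0 in the 4 cells. Its Cldn5 class level was 9.95-fold above the limit (upper bound of the ratio 0.124). Within the selection both genes thus separated all cells of the 2 classes, as did Bsg, and how many of all genes do so was not counted. Outside it Slco1a4 did not, with 3 UMIs in a Plvap cell and UMIs in only 2 of 5 Cldn5 cells described further on.

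Other carriers followed. Slc7a5, the light chain of the large neutral amino acid transporter, had 388 UMIs over 69 of 76 cells against 0 in the Plvap class. Its Cldn5 class level was 6.88-fold above the limit of the Plvap class. Slco1c1, a thyroid hormone transporter, stood 3.55-fold above this limit in the Cldn5 class and had 0 UMIs in the Plvap class. Bsg had 6 to 112 UMIs per cell of the Cldn5 class and 1, 0, 1 and 2 UMIs in the Plvap class, or 18879 against 368 CPM. Mfsd2a, the lysophospholipid transporter that restrains vesicle traffic, had 73 UMIs over 41 cells of the Cldn5 class and 0 in the Plvap class, where a level up to 276 CPM would be missed against 357 CPM.

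A few transporters kept similar levels. Slc3a2, the heavy chain that pairs with Slc7a5, had 5, 2, 1 and 4 UMIs in the Plvap class, or 1104 against 1293 CPM. The efflux pump gene Abcg2 had 2, 1, 1 and 3 UMIs, or 644 against 1244 CPM. Slc6a6, the taurine transporter, had 2, 1, 4 and 0 UMIs, or 644 against 695 CPM. These 3 genes gave 26 of the 35 transporter UMIs of the Plvap class, Bsg gave 4 and all others 5. The heavy chain of the amino acid transporter was thus measured in every cell of the Plvap class while its light chain was in none.

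Genes of fenestrated vessels showed the opposite order. Without Plvap, the list holds 14 genes, and the 4 cells of the Plvap class held 24, 66, 20 and 151 UMIs of them against 0 to 36 in the Cldn5 class, with a median of 7.5. In CPM per cell the Plvap class spanned 8418 to 34171 and the Cldn5 class 0 to 8090, again without overlap. The sums were 24009 and 3334 CPM, a 7.20-fold difference (interval 6.22 to 8.32), and 4.92-fold (interval 4.14 to 5.82) without Igfbp3. Without a minimum of UMIs, 12 of the 14 genes had a higher CPM in the Plvap class, as had 25.8% of the 11236 genes, 1 (Car4) had a lower CPM and 1 (Cldn1) had no UMI in either class. Igfbp3, Plpp1 and Plpp3 reached the minimum of 30 UMIs only with those of the Plvap class, so no count over the genes that passed it is given.

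Igfbp3, which encodes a binding protein of insulin-like growth factors, had 14, 19, 1 and 53 UMIs in the Plvap class. In the Cldn5 class it had 0 to 5 UMIs and was found in 9 of 76 cells. The levels were 8003 and 78.3 CPM, a ratio of 102 (interval 59.5 to 187; log2 5.97 with the pseudocount). Plpp1, a lipid phosphate phosphatase, had 7, 21, 11 and 12 UMIs against 0 to 4, and its ratio was 50.4 (interval 29.3 to 90.5). Of the genes not used to define the classes, Plpp1 was thus above the whole range of the Cldn5 class in each of the 4 cells, while Igfbp3 was in 3 of them. How many of all genes lie above it in each of the 4 cells was not counted. Plpp3, of the same enzyme family, was uneven at 0, 9, 1 and 16 UMIs.

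Of 9 genes of the VEGF, angiopoietin and apelin system with enough UMIs, Kdr, Nrp1 and Tek were over 2-fold higher in the Plvap class (8.47% of all genes), 0 were over 2-fold lower and 6 were within 2-fold. Kdr, the main signalling receptor for VEGF, had 1, 3, 0 and 8 UMIs, a ratio of 7.05 (interval 3.30 to 14.1). Nrp1, a co-receptor, had 0, 5, 0 and 11 UMIs, a ratio of 6.53 (interval 3.45 to 11.8). Flt1, the decoy receptor that the selection used, stood at 1472 and 1621 CPM in the Plvap and the Cldn5 class. Ramp3, an accessory protein of the adrenomedullin receptor, had 1, 1, 2 and 6 UMIs in the Plvap class against 16 UMIs over 13 of the 76 cells, or 920 against 78.3 CPM. The difference in Kdr and Nrp1, which are also in the fenestrated vessel list, rested mainly on cells 2 and 4. Of these, cell 2 was marked by the doublet caller, and without it all Nrp1 UMIs of the class came from cell 4. Flt1 had a ratio of 0.908 (interval 0.513 to 1.497).

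Several fenestrated vessel genes had UMIs in the Plvap class only. Esm1, the VEGF-induced proteoglycan endocan, had 0, 1, 0 and 18 UMIs and none in the 76 cells. Its level was 119-fold above the limit of the Cldn5 class (exact lower bound of the ratio 87.7). Exoc3l2 had 0, 3, 3 and 1 UMIs, 43.8-fold above the limit (lower bound 27.1). Gpihbp1, which carries lipoprotein lipase across capillary endothelium, had 0, 1, 0 and 3 UMIs, 25.05-fold above it (lower bound 12.4). The water channel gene Aqp1 had 5 UMIs, all in cell 4, 31.3-fold above it (lower bound 17.2). Cell 4 was the deepest of the 4, with 4419 UMIs against 1835, 2241 and 2376, and it held most UMIs of Esm1, Gpihbp1 and Aqp1. Car4, a carbonic anhydrase at the capillary surface, was lower in the Plvap class, with 4 UMIs, all in cell 4, against 516 UMIs over 61 cells.

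**Figure D2:**
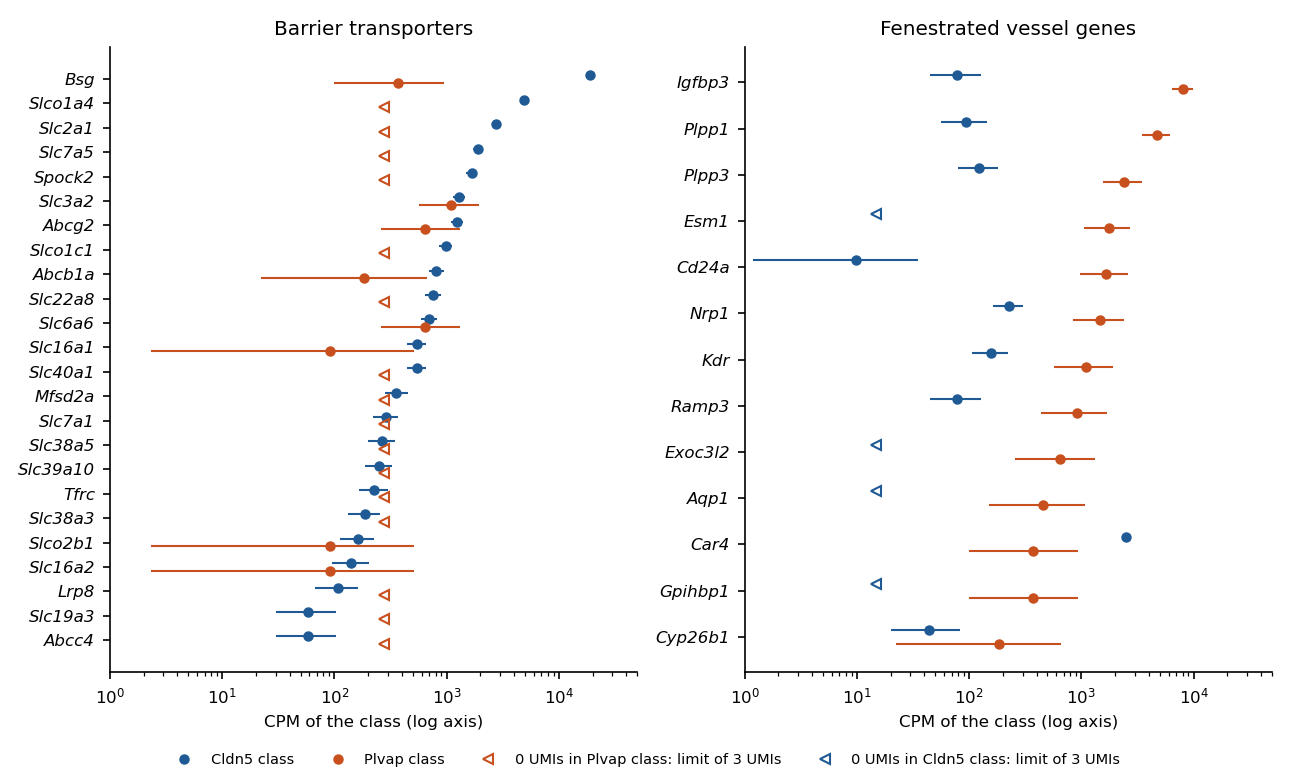
Level in CPM (x axis, log) of the 24 barrier transporters (left) and 13 fenestrated vessel genes other than Plvap (right) in the Cldn5 class (blue) and the Plvap class (orange). Points are summed levels, lines are exact Poisson 95% intervals cut at 1 CPM, and open triangles mark genes with 0 UMIs at the limit of 3 UMIs (276 CPM and 14.7 CPM); Cldn1, with 0 UMIs in both classes, is not drawn. Blue lies above orange for every transporter measured in both classes, with Slc3a2 and Slc6a6 closest, and orange lies above blue for every fenestrated vessel gene except Car4.

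Components and targets of Wnt signalling in barrier vessels were sparse in both classes. Summed over 20 genes they stood at 1196 CPM in the Plvap class, with 2, 3, 3 and 5 UMIs per cell, and at 2825 CPM in the Cldn5 class, a 2.36-fold difference (interval 1.37 to 4.46). Per cell the classes overlapped, since 12 cells of the Cldn5 class lay below the highest CPM of the Plvap class. Of 7 genes with enough UMIs, 6 were over 2-fold lower (24.0% of all genes), 1 of them at a Cldn5 class level under 276 CPM, and 1 was over 2-fold higher. The transcription factor genes Lef1, Foxq1 and Sox17 had 61, 73 and 105 UMIs in the Cldn5 class and 0 in the Plvap class, and their levels in the Cldn5 class, at 299, 357 and 514 CPM, lay above the limit of 276 CPM. Tspan12, a partner of the receptor Frizzled-4, was the exception with 2, 2, 0 and 3 UMIs, or 644 against 191 CPM, and Fzd4 itself had 0, 1, 1 and 1 UMIs against 9 over 76 cells.

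Junction genes other than Cldn5 had similar sums, at 3128 CPM in the Plvap class and 3804 CPM in the Cldn5 class (ratio 0.822, interval 0.565 to 1.16). Of 9 genes with enough UMIs, 0 were over 2-fold higher and 2 over 2-fold lower, a share near the 24.0% of all genes. These were Ocln and Lsr, which encode occludin and the angulin of tricellular junctions, with 100 and 95 UMIs in the Cldn5 class and 0 in the Plvap class, or at most 276 CPM against 490 and 465 CPM. Esam, an adhesion molecule of endothelial junctions, had 1, 4, 2 and 3 UMIs in the Plvap class, or 920 against 1013 CPM. Ctnnb1, encoding beta-catenin, had 1, 2, 2 and 2 UMIs, and Cdh5 had 2, 1, 1 and 2. Genes of the adherens junction were thus found in each cell of the Plvap class.

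General endothelial genes were present in both classes. The list summed to 30908 CPM in the Plvap class and 24764 CPM in the Cldn5 class (ratio 1.25, interval 1.11 to 1.39), with 46 to 148 and 15 to 227 UMIs per cell. Of 21 genes with enough UMIs, 6 were over 2-fold higher and 3 over 2-fold lower, where 8.47% and 24.0% of all genes were. Among the 6, Cd93 reached the minimum only with its UMIs in the Plvap class, at 5 against 26 in the Cldn5 class. Emcn, which encodes the sialomucin endomucin, had 10, 10, 10 and 24 UMIs against 0 to 4 in the Cldn5 class, a ratio of 10.1 (interval 7.15 to 14.3). Each of the 4 cells thus lay above all 76, and how many of all genes do so was not counted. Rgcc, a cell cycle regulator, had 1, 13, 4 and 15 UMIs, or 3036 against 872 CPM. Sox17 and Sox18, factors of endothelial identity, and Ly6c1 were the 3 lower genes, and Sox17 and Sox18 had 0 UMIs in the Plvap class against 105 and 42, though the Cldn5 class level of Sox18, 206 CPM, lay under 276 CPM.

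Genes of caveolae and vesicles were taken as 1 list, which also holds Cltc, Dnm2 and Stx4a. They summed to 4507 CPM in the Plvap class and 2428 CPM in the Cldn5 class (ratio 1.86, interval 1.35 to 2.49). Of their 49 UMIs in the Plvap class, Ehd4 gave 15, so the ratio is not one of caveolar genes alone. Of 7 with enough UMIs, 1 (Cavin3) was over 2-fold higher and 1 (Cavin1) over 2-fold lower, close to the 8.47% and 24.0% of all genes, and Cav1 had 1 UMI in the Plvap class against 44 in the Cldn5 class. Ehd4, an ATPase of membrane trafficking, had 1, 7, 3 and 4 UMIs in the Plvap class and 8 UMIs over 8 of 76 cells, or 1379.8 against 39.2 CPM. With 23 UMIs over both classes it was below the minimum of 30. Timp3, a matrix-bound inhibitor of metalloproteinases, had 3, 12, 28 and 18 UMIs, a ratio of 11.2 (interval 8.04 to 15.6). Of 7 genes of the basement membrane list with enough UMIs, Timp3 and the collagen gene Col4a1 were over 2-fold higher, and Sparc and Sparcl1 over 2-fold lower, beside 8.47% and 24.0% of all genes.

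**Figure D3:**
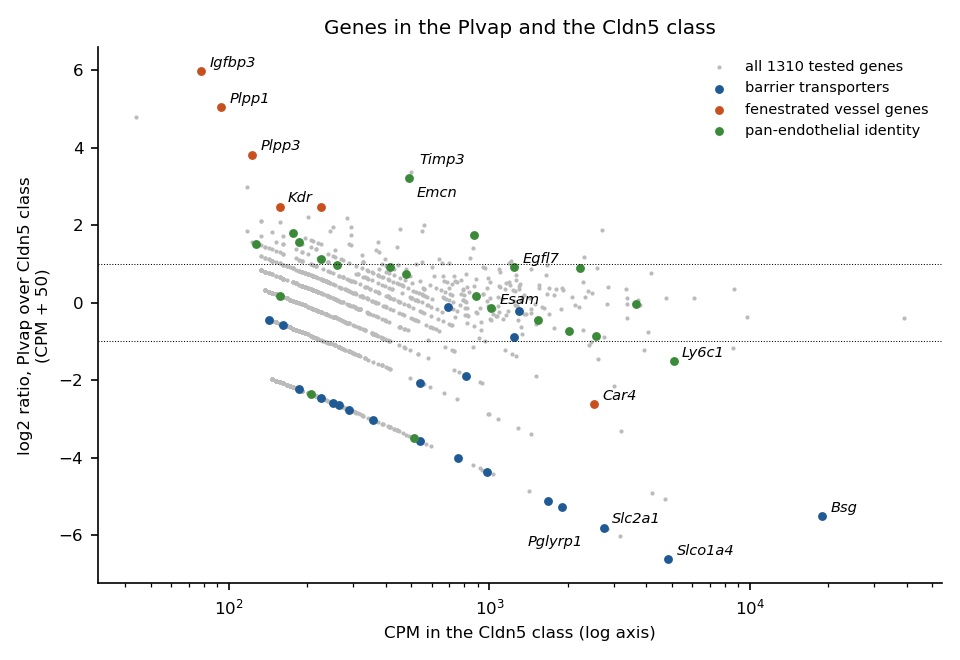
Log2 ratio of the Plvap over the Cldn5 class (y axis, pseudocount 50 CPM) against the level in the Cldn5 class (x axis, log) for 1310 genes (grey), with barrier transporters (blue), fenestrated vessel genes (orange) and pan-endothelial genes (green) in colour and dotted lines at 2-fold. The lowest diagonal of points is made of the 210 genes with 0 UMIs in the Plvap class; Slco1a4 and Bsg lie at the bottom right, and Igfbp3, Plpp1 and Plpp3 at the top left.

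By size of the log2 ratio alone, the 15 highest genes of the Plvap class were Igfbp3, Plpp1, Fos, Plpp3, Timp3, Emcn, Sgk1, Kdr, Nrp1, Junb, Hsp90aa1, Klf3, Ifngr1, Txnip and Ifitm2. Of these, 7 had under 30 UMIs in the Cldn5 class and passed the minimum only with those of the Plvap class, as did 23 of all 111 higher genes. Sgk1, a kinase induced by glucocorticoids, had 1, 4, 4 and 5 UMIs against 24 UMIs over 23 cells (ratio 10.96, interval 5.24 to 22.1), and Txnip, a glucose-responsive arrestin, had 1, 3, 4 and 1 UMIs. The interferon-inducible Ifitm2 had 4, 9, 1 and 12 UMIs. Fos and Junb, immediate early genes, were different: Fos had 0, 0, 27 and 1 UMIs and Junb 1, 0, 11 and 0, so that cell 3 decided both. In that cell Socs3, Ccn1, Jun and Ier2 had 5, 5, 9 and 7 UMIs. Over all 111 higher genes, 44 had a UMI in each of the 4 cells.

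The 15 lowest genes were Slco1a4, Hba-a2, Hba-a1, Pglyrp1, Slc2a1, Ptn, Bsg, Slc7a5, Spock2, Selenop, Hbb-bs, Glul, Vtn, Slco1c1 and Vwa1. Pglyrp1, a peptidoglycan recognition protein, had 577 UMIs over 72 cells of the Cldn5 class against 0, 10.2-fold above the limit of 3 UMIs. Ptn, the growth factor pleiotrophin, had 557 UMIs over 67 cells against 0, 9.88-fold above this limit. Spock2, a matrix proteoglycan, and Glul, glutamine synthetase, had 0 UMIs in the Plvap class and stood 6.07-fold and 5.13-fold above it. Selenop, the plasma carrier of selenium, had 2 to 35 UMIs in all 76 cells and 0, 0, 0 and 1 in the 4 cells. Hba-a2, Hba-a1, Hbb-bs and Vtn entered through a few cells of the Cldn5 class, described below, and not through the class at large.

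Cells outside the selection gave a second look at both classes. With Itm2a at 9 and 3 UMIs, 2 cells failed the selection on the 4-gene sum (2 UMIs) or on Itm2a, but held 12 and 6 UMIs of Plvap and 0 of Cldn5. Both fell in the same Leiden cluster as the endothelial cells, and they came from barcode numbers 2 and 4. They held 18 and 8 UMIs of Igfbp3, 6 and 8 of Plpp1, 5 and 3 of Plpp3, 3 and 3 of Emcn, and 2 and 15 of Timp3. Slc2a1, Pglyrp1, Ptn, Spock2, Slco1c1 and Vwa1 had 0 UMIs in both, but Slco1a4 had 3 in the first and Selenop 6 in each. Esm1, Exoc3l2, Gpihbp1 and Aqp1 had 0 UMIs in both, at a depth of 4535 UMIs together.

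A further 5 cells outside the selection held at least 5 UMIs of Cldn5 and 0 of Plvap, and all were in the same cluster. They had 17 UMIs of Slc2a1 spread over all 5 cells, and 72 of Bsg, or 6283 CPM. They also differed from the members: Slco1a4 had 8 UMIs over 2 of the 5 cells where all 76 members held it, Slc6a6 had 46 UMIs or 4014 CPM against 695 CPM, and Abcg2 had 0. Sox17 had 19 UMIs over 4 cells, or 1658 against 514 CPM. Fos and Junb stood at 3142 and 2531 CPM against 44.1 and 201 CPM in the Cldn5 class, with UMIs in 2 and 4 of the 5 cells. These 5, among 10 cells that failed on the Itm2a minimum alone, thus differed in these genes from the 76 of the Cldn5 class. Neither outside group shares a cell with the classes. Between them, 13 of the 15 highest genes were higher in the 2 Plvap cells, where 40.1% of the 1310 genes were, and 10 of the 15 lowest were lower, where 51.1% were, while the 3 haemoglobin genes among these were at 0 in both. Slc7a5 (221 against 0 CPM) and Selenop (2646 against 2356 CPM) went the other way, as did Hsp90aa1 and Ifngr1 among the highest. Several calls rest on few UMIs: Vwa1 and Vtn had 0 against 1, Klf3 and Sgk1 1 against 1, and Nrp1 1 against 2. Slco1a4 differed little, at 662 against 698 CPM.

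Against all other cells of the ME, endothelial cells had 156 of 12690 genes (1.23%) over 4-fold higher and 104 (0.820%) over 4-fold lower, with a pseudocount of 50 CPM. The 15 highest, apart from genes of the selection, were Slco1a4, Pglyrp1, Ly6a, Car4, Ctla2a, Slc7a5, Bsg, Igfbp7, Egfl7, Hba-a1, Slc2a1, Esam, Abcg2, Hba-a2 and Klf2. Because cells were selected on endothelial genes, this list describes the group. Slco1a4 stood at 4616 CPM against 2.68 CPM, the highest ratio, and Pglyrp1 at 2682 against 3.47 CPM. Ly6a, a surface antigen of endothelial cells, had UMIs in 76 of the 80 cells. Egfl7, a secreted factor of endothelial cells, had UMIs in 78, with 6, 5, 2 and 13 in the Plvap class.

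Some of these genes were shared with vessel neighbours. Car4 stood at 2417 CPM in endothelial cells and at 1179 CPM in the 52 mural-rule cells, which were selected by pericyte genes. Igfbp7 was higher in the mural-rule cells (5389 CPM) than in the endothelial cells (3658 CPM), with 2132 CPM in the 277 VLMC-rule cells. Klf2, the flow-responsive transcription factor, stood at 2315 CPM against 1094 CPM in the VLMC-rule cells. In contrast Ctla2a, at 1976 CPM, was at 0 in the VLMC-rule cells and at 39.97 CPM in the mural-rule cells. Bsg was found in 89.9% of the other cells, at 746 CPM against 17944 CPM.

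Within the Cldn5 class, markers of arteries, capillaries and veins were set out cell by cell. The list of 17 arterial genes had UMIs in 67 of the 76 cells, with Sox17 in 52, Hey1 in 24, Clu in 20 and Edn1 in 16. Each other gene of the list was found in at most 13 cells. Gkn3, which marks arterial endothelium of the brain, had 5, 1 and 1 UMIs in 3 cells, and these were the only cells with UMIs of at least 3 of the 6 genes Gkn3, Bmx, Sema3g, Fbln5, Alpl and Mgp, a count made after the values were seen. They held 11, 7 and 4 UMIs of Mgp and 0 of both Mfsd2a and Slc38a5. No UMI of any of the 6 genes was found in 61 of the 76 cells. Of the 6, only Mgp was lower in all endothelial cells than in the other cells of the ME, at 172 against 198 CPM.

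Capillary and venous markers were more widespread and overlapped. Mfsd2a, high in capillaries, had UMIs in 41 cells, and Slc38a5, a glutamine carrier enriched towards veins, in 28, with 17 cells holding both. The venous adhesion genes Ackr1, Selp and Sele were at 0, and Vwf had 10 UMIs over 8 cells. Cells with a Slc38a5 UMI had 4494 CPM of Tmsb10 (interval 4031 to 4996), a gene listed as venous, against 2134 CPM (1888 to 2403) in the 48 cells without. Car4 stood at 3708 against 1821 CPM in the same groups, and Cxcl12, a chemokine higher towards arteries, at 655 against 1180.4 CPM. The median depth was 2218 UMIs with and 2383 without Slc38a5, and Slco1a4 stood at 5346 and 4573 CPM. These values follow a split on 1 sparse gene and describe only these cells.

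Most capillary markers were lower in the Plvap class. Of 11 with enough UMIs, 9 were over 2-fold lower and 1, Rgcc, over 2-fold higher, where 24.0% and 8.47% of all genes were, and 1 of the 9, Tfrc, lay under 276 CPM in the Cldn5 class. Among the 9, Mfsd2a, Tfrc, Slc16a1, Slc7a5 and Spock2 are also among the lower barrier transporters, and Car4 is in the fenestrated vessel list. This count is therefore not separate from that of the transporters. Cxcl12 and Hmcn1 had 1 UMI each in the Plvap class, against 201 and 109. Of the 5 arterial and 2 venous genes with enough UMIs, Sox17 and Tmsb10 were over 2-fold lower at a level above 276 CPM in the Cldn5 class. Hey1, Clu, Edn1 and Slc38a5 had 0 UMIs in the Plvap class and lay under 276 CPM in the Cldn5 class, so that a lower level could not be told from too few UMIs. No lymphatic marker had enough UMIs, and Lyve1, Pdpn, Ccl21a and Mmrn1 were at 0 in both classes.

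A group of 6 cells of the Cldn5 class also held Vtn, a gene of pericytes, at 16 to 46 UMIs each, while no other cell of the class held more than 1. Of these, 5 also held at least 3 UMIs of Rgs5, Kcnj8, Abcc9 and Pdgfrb together, as did 5 other cells of the class, and Vtn had a median of 17.5 UMIs in the mural-rule cells. Their median depth was 3698.5 UMIs, against 2245.5 in the remaining cells of the class. Cldn5 and Slco1a4 had medians of 14 and 15 UMIs in the 6 cells and 15 and 12 in the remaining cells. The doublet caller marked 1 of the 6. In all, 319 UMIs of mural markers were found in the Cldn5 class and 0 in the Plvap class, and the part of mural RNA in the class ratios of Vtn and Rgs5 was not tested. Without the 6 cells and the cell with haemoglobin, 98 and 262 genes were over 2-fold higher and lower in place of 111 and 314.

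**Figure D4:**
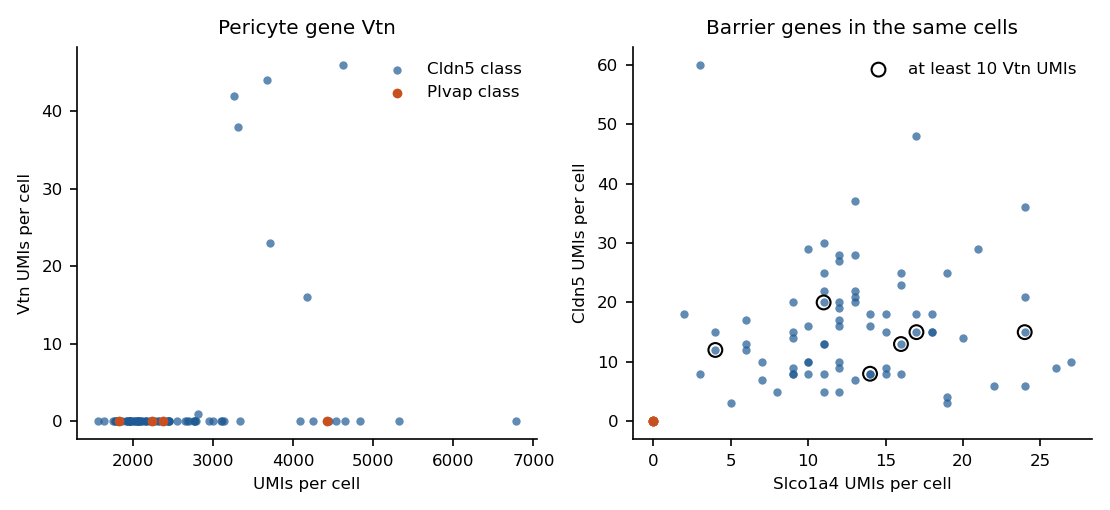
Left, Vtn UMIs per cell (y axis) against all UMIs of the cell (x axis) for the Cldn5 class (blue) and the Plvap class (orange). Right, Cldn5 UMIs (y axis) against Slco1a4 UMIs (x axis) in the same cells, with the 6 cells of at least 10 Vtn UMIs circled; these 6 lie between 4 and 24 UMIs of Slco1a4, within the range of the other cells, and the 4 cells of the Plvap class lie at the origin.

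Single cells carried other sums. In barcode number 2, 1 cell of the Cldn5 class held 857 UMIs of Hbb-bs, 649 of Hba-a2 and 577 of Hba-a1, and haemoglobin genes made up 39.9% of its 5328 UMIs. The other endothelial cells held 4 haemoglobin UMIs together. In number 1, 1 of the 3 Gkn3 cells also held 591 UMIs of Ptgds, 87 of Apoe, 23 of Vtn and 5 of Vcam1. The deepest cell, with 6780 UMIs, held 60 UMIs of Cldn5, the highest value, together with 97 of Tmsb10, 10 of Apln and 5 of Angpt2, genes that are known from sprouting endothelium, but 3 of Slco1a4. Another cell of number 1 held 16 of the 36 UMIs of Edn1, the precursor of the vasoconstrictor endothelin-1.

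Over the 4 barcode numbers, most genes of the endothelial cells kept their level. Among 316 genes with at least 100 UMIs the median range from the lowest to the highest number was 0.55 on the log2 scale, and 40 exceeded 1. The 10 widest were Hbb-bs, Hba-a2, Hba-a1, Ptgds, Igfbp3, Apod, Ctla2a, Timp3, Dbi and Serpinh1. The haemoglobin genes and Ptgds came from the single cells above, with 90.1% of the Ptgds UMIs from 1 cell. Igfbp3 stood at 688, 60.5, 40.8 and 1986 CPM in numbers 1 to 4, and at 80.5, 60.5, 40.8 and 218 CPM in the Cldn5 class alone, since the Plvap class was found in numbers 1 and 4.

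Ctla2a, a cysteine protease inhibitor of endothelial cells, varied without a dominant cell, since its highest cell held 7.29% of its UMIs. Apod, with a wider range, had 38 and 22 UMIs in its 2 highest cells. Ctla2a stood at 2113, 2639, 1591 and 480 CPM in the Cldn5 class of numbers 1 to 4, with UMIs in 16 of 19, 26 of 31, 12 of 18 and 3 of 8 cells. The interval of number 4 (239.7 to 859 CPM) lay below those of the other numbers. Serpinh1, a collagen chaperone, stood at 765, 169, 490 and 611 CPM in the same order. Dbi was highest in number 4, at 2794 CPM, where 1 cell gave 58 UMIs. Slco1a4 by contrast stood at 4849, 4854, 5100 and 4409 CPM in the 4 numbers.

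**Figure D5:**
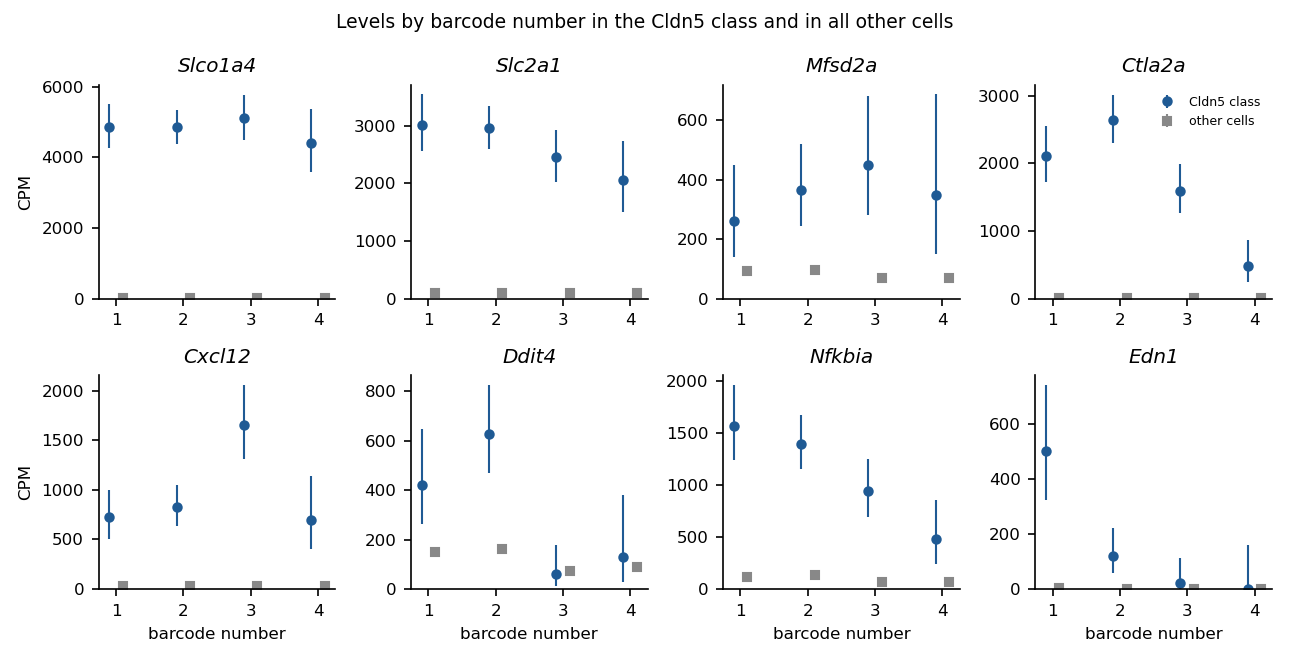
Level in CPM (y axis) of 8 genes by barcode number (x axis) in the Cldn5 class (blue circles; 19, 31, 18 and 8 cells) and in all other cells of the matrix (grey squares), with exact Poisson 95% intervals. Slco1a4 is level at 4409 to 5100 CPM, Ctla2a falls to 480 CPM in number 4, and the 503 CPM of Edn1 in number 1 come mostly from 1 cell; the numbers are not tied to a feeding state.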

How the data were processed

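Single-cell RNA-sequencing of the mouse ME was analysed from the deposited counts: the authors made these UMI counts with Cell Ranger 2.0 on mm10 (GRCm38), per the submitters' processing notes and the methods, and deposited them unnormalized in 1 matrix. The annotation release and any equalisation of depth between libraries are not given in the sources used here. Gene identifiers were matched to symbols for 27645 of 27998 genes with GENCODE annotation of GRCm38. All values were whole numbers, 0 columns of per-sample values were left unused, and no cell was removed.

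The members, gene lists and comparisons were chosen with earlier results of these data known. UMIs were summed over cells and scaled to CPM. Plvap and Cldn5 classes were compared over genes with at least 30 UMIs, and endothelial with other cells over genes with at least 30 UMIs in endothelial or 100 UMIs in other cells, on log2(CPM + 50). A count of 0 was read as under 3 UMIs. Named genes were those of the selection, list members, the 15 largest log2 ratios each way, and the 10 widest ranges over barcode numbers. Gene lists overlap, and a shared gene counts in each list that holds it. The further condition of the same direction in every barcode number with at least 3 cells of each class could not be applied, since no number had them. Planned counts of refed against fasted cells were not made.

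All cells were clustered with scanpy 1.11.5 (2000 variable genes, 30 components, 15 neighbours, Leiden resolution 1), and Scrublet, run separately on the cells of each barcode number, called doublets (50 cells, 0.836%), which were kept. Python 3.11.15, numpy 2.4.6, scipy 1.17.1 and matplotlib 3.10.9 were used. The class comparison was tried on simulated counts drawn without spread between cells. Such counts do not cover differences between the few cells of the Plvap class. Promoter windows were taken from RefSeq, where 18 of 24 barrier transporters and 11 of 15 fenestrated vessel genes had an entry. Alternatives were other thresholds of the selection and the classes, other UMI minimums and pseudocounts, means of CPM per cell, thinned cells, doublets or cells with mural genes left out, and each barcode number left out.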

Additional observations from a re-analysis of the deposited data

How the results depend on the processing

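With 4 cells in the Plvap class, depth sets what can be seen: genes under 276 CPM there may be read as absent. Of 61 alternatives to 6 results, 53 stayed within the limits set for a like value, 8 moved and 0 reversed. The number of genes over 2-fold between the classes, 425, was 1693 with a minimum of 10 UMIs, 84 with a minimum of 100, 206 with a pseudocount of 200 CPM, and 243 with cells thinned to 1500 UMIs. With barcode numbers left out in turn it was 239 to 565, the lowest without number 2, which held 31 of the 76 Cldn5 cells; fewer genes were then tested (773 in place of 1310). The genes over 4-fold higher in endothelial cells, 156, were 373 with a pseudocount of 10 CPM and 44 with one of 200 CPM. The log2 difference of the fenestrated vessel genes, 2.83, was 2.63 when cells were chosen by at least 5 UMIs of Plvap or Cldn5 whatever Itm2a, which gave 6 Plvap cells among 84. For barrier transporters the log2 difference of -3.58 lay between -3.82 and -3.18. The number of endothelial cells lay between 73 and 85. The share of the Plvap class, 5%, was 3.85% without doublets, 7.14% by the choice on Plvap or Cldn5, and 2.86% to 8.16% without 1 barcode number; without number 4 or number 1 it was 2.86% or 3.39%, and without number 2 it was 8.16%. Thinning to 1500 UMIs, the choice whatever Itm2a, and leaving out cells with Vtn or haemoglobin were added after the data were seen. No paired analysis was possible because the barcode numbers are not tied to libraries, feeding states or replicates.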

Other observations

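Genes of nutrient handling had unlike ranges over the barcode numbers, some of them on few UMIs. In the endothelial cells Igf1r, Insr, Hk1 and Slc2a1 had log2 ranges of 0.42, 0.46, 0.37 and 0.88 from the lowest to the highest number (pseudocount 50 CPM), while Ddit4, Angptl4 and Txnip had ranges of 2.61, 2.21 and 1.45. Insr had 6, 6, 4 and 2 UMIs and Hk1 4, 8, 5 and 2, levels near the pseudocount, which narrows their ranges. The Angptl4 interval of number 4 reached 124 CPM and overlapped those of numbers 1 and 2. Ddit4, an inhibitor of mTORC1 that fasting and glucocorticoids induce, had 21, 52, 3 and 3 UMIs in the Cldn5 class of numbers 1 to 4, or 423, 629, 61.2 and 131 CPM. In all other cells Ddit4 stood at 151, 164, 73.3 and 89.3 CPM in the same order. The lowest interval bounds of numbers 1 and 2 in the Cldn5 class, 262 and 470 CPM, were above the upper bound of number 3 (179 CPM), while number 4 reached up to 383 CPM and overlapped number 1. Angptl4, an inhibitor of lipoprotein lipase, had 8, 15, 2 and 0 UMIs, and Nfkbia, the NF-kB inhibitor of another list, stood at 1569, 1392, 938 and 480 CPM, with 119, 134, 64.5 and 63.6 CPM in the other cells. Txnip had 6, 21, 3 and 2 UMIs in the Cldn5 class. Cxcl12 was highest in number 3, at 1652 CPM, against 724, 823 and 698 CPM in numbers 1, 2 and 4. The numbers are not tied to a feeding state, so these values are given by number alone.

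Receptors for metabolic hormones were sparse. Insr, the insulin receptor gene, had 2 UMIs in the Plvap class and 16 in the Cldn5 class, and Igf1r had 70 UMIs over 41 cells of the Cldn5 class and 0 in the Plvap class. Lepr had 2 UMIs over all endothelial cells together, Irs1 had 0 and Irs2 had 1. Lpl had 1 UMI, in cell 4 of the Plvap class. Of 6 nutrient and insulin genes with enough UMIs, Txnip and Sgk1 were over 2-fold higher in the Plvap class and Slc2a1, Igf1r and Ddit4 over 2-fold lower, beside 8.47% and 24.0% of all genes. Sgk1 reached the minimum only with its UMIs in the Plvap class.

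Among vasoactive genes, Ptgs1, a cyclooxygenase, had 0, 2, 2 and 1 UMIs in the Plvap class and 0 in the 76 cells of the Cldn5 class. Its level was 31.3-fold above the limit of the Cldn5 class, with the same totals as Aqp1 (lower bound of the ratio 17.2). Thbd, thrombomodulin, had 0, 1, 1 and 2 UMIs against 17 in the Cldn5 class. The ephrin gene Efnb1 had 2, 0, 2 and 1 UMIs against 4 over 76 cells. Isg15, an interferon-induced gene, had 62 UMIs over 30 cells of the Cldn5 class and 0 in the Plvap class, while H2-D1 had 5, 9, 10 and 4 UMIs in the Plvap class. Edn1 had 36 UMIs over 16 cells of the Cldn5 class and 0 in the Plvap class.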
